A study of Mus musculus with 4 samples.

Results

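Expression of 9 genes of follicle B cells and IgA plasma cells was followed in the small intestine of mice labelled as lacking HNF4 in the gut and in controls. The genes were taken by name and fall into 7 of B cells (Cd79a, Cd79b, Ms4a1, Cr2, Cd22, Ltb and Pou2af1) and 2 of plasma cells (Jchain and Igha). Every probe set annotated to exactly 1 of them was used, which gave 13 of the 22626 probe sets that are not array controls, for 9 of 12393 named genes. Of these genes 6 had 1 probe set, Ms4a1 and Cd22 had 2 each and Igha had 3. The data are single-colour Affymetrix arrays of biotin-labelled total RNA, 1 array for each of 4 animals aged 1 month. The HNF4 null group holds a male and a female, each carrying villin Cre and, at HNF4, a loxP allele opposite a minus allele; the villin promoter is active in intestinal epithelium. The controls are a female with a loxP allele over the wild-type allele and villin Cre, and a male with a loxP allele over the minus allele and no Cre. All 4 animals therefore carried a loxP allele, and the 2 controls differ in genotype as well as sex, which cannot be told apart. Villin Cre is not active in B cells or plasma cells, while a minus allele lies in every cell of both null animals and of the male control. The labels give neither the stretch of gut sampled nor whether Peyer's patches were kept or removed.

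B cells of the gut wall lie mainly in Peyer's patches and smaller isolated follicles, which occur at intervals along the intestine, and there they are selected and switched to IgA. The IgA plasma cells that arise from them settle throughout the lamina propria of the villi, where they release IgA dimers joined by the J chain, which the epithelium carries into the lumen. In a bulk sample of the gut wall, genes of follicle B cells and genes of plasma cells can therefore read out partly different compartments. Some of them, such as Ltb, are made by other cells too. Fewer cells of a type and less RNA per cell cannot be told apart in such samples.

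Median deposited intensities lay between 43.2 and 53.3 on the 4 arrays, and Pearson correlations between arrays, across probe sets, between 0.927 and 0.963, with the lowest for the 2 null animals. Values below 0 made up 2.46% of the array of the male null, which was also the dimmest by its median. Transcripts that cannot be present served to read the dim end of the scale. On 6 probe sets of the Y-linked genes Eif2s3y, Kdm5d, Uty and Ddx3y, the 12 values of the females ran from −2.23 to 34.4 with a median of 13.9. RNA of the HNF4 genes did not bear out the labels, which do not say which paralogue was targeted. Hnf4a, on its brightest probe set, read 1136 in the male null and 1025 in the female null, against 1141 in the female control and 731 in the male control. All 6 probe sets of Hnf4a and of its paralogue Hnf4g had a null minus control difference above 0, with limma's adjusted p at 1. For Hnf4a this came mainly from the males, where null minus control ran from 0.23 to 0.62 on the log2 scale. In the females it stood at −0.24, 0.10, −0.16 and −0.07. Whether these probes lie in the deleted part is not known here, so null and control below mean the animals labelled so. Gut epithelium was plainly present on all arrays, with the fatty acid binding protein gene Fabp2 at 6906 in the male null and 6579.98 in the female null, against 7836 in the female control and 7327 in the male control.

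The 2 signalling chains of the B cell receptor were bright on both arrays from females and dim on the array of the male control. Cd79a, which encodes the Ig-alpha chain, had intensities of 77.8 in the male null and 159 in the female null, against 185 in the female control and 40.9 in the male control. Cd79b, the Ig-beta chain, had 88.3 and 201 in the male and female null, against 192 in the female control and 28.5 in the male control. For both genes the 2 null values lay inside the span of the 2 control values or barely outside it, and the order of the arrays followed sex, with the 2 females above the 2 males. On the log2(intensity + 16) scale after normalization Cd79a averaged 7.03 ± 0.49 in null and 6.72 ± 1.27 in control intestine, and Cd79b 7.26 ± 0.61 in null and 6.57 ± 1.56 in control intestine (SD, n = 2 each). The SD of the 2 controls was larger than the difference between the groups for both genes.

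**Figure D1:**
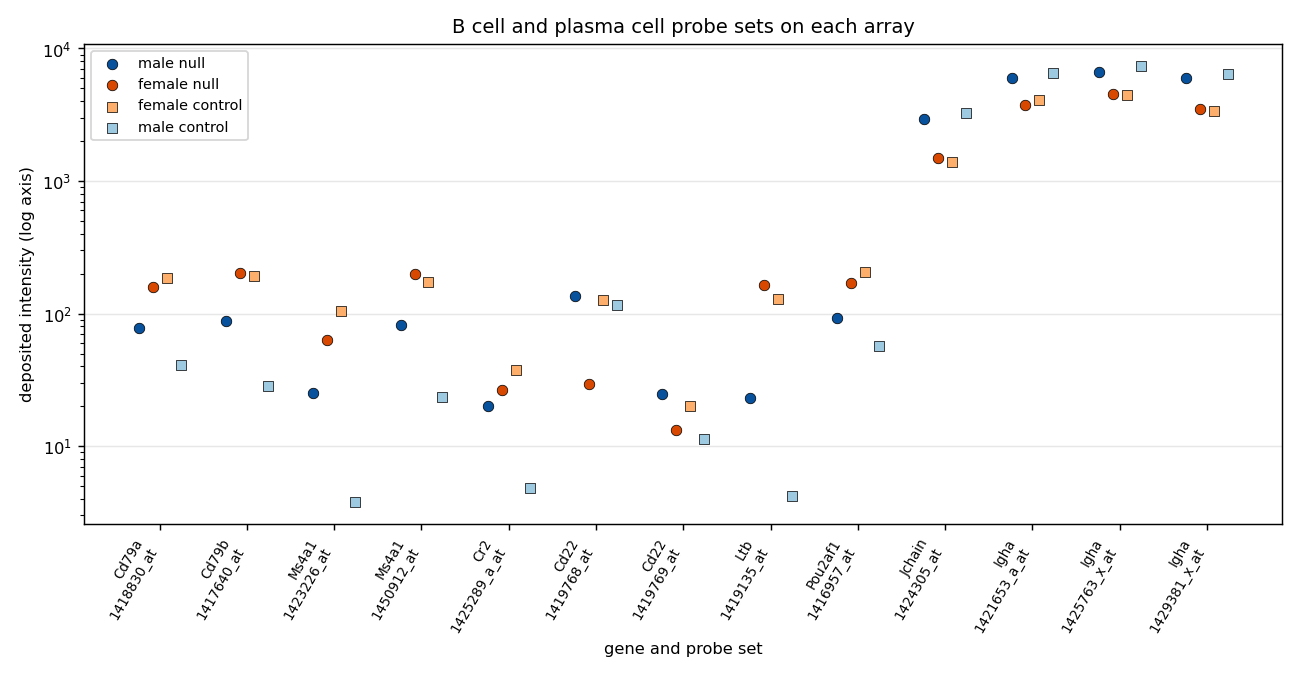
Deposited intensity, on a log axis, of the 13 probe sets of the B cell and plasma cell genes on each of the 4 arrays. Circles are null animals and squares controls, with females in orange shades and males in blue shades. The male control is the lowest array for 8 of the 9 B cell probe sets, and both females lie below both males on all 4 plasma cell probe sets.

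The surface proteins of mature B cells did not all follow the receptor. Ms4a1, which encodes the B cell antigen CD20, read 82.2 in the male null and 200.4 in the female null, against 173 in the female control and 23.6 in the male control on its brighter probe set, 1450912_at. Its other probe set, 1423226_at, read 25.3 and 63.1 in the male and female null, against 105 in the female control and 3.78 in the male control. Both probe sets thus placed the females above the males and the male control at the dim end, where 34.4 was the highest value of an absent Y-linked transcript.

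Cr2, the complement receptor of B cells and follicular dendritic cells, was dim throughout. It read 20.2 in the male null and 26.6 in the female null, against 37.4 in the female control and 4.86 in the male control, and did not pass the filter on dim probe sets. The order of its deposited values was that of Cd79a, but after normalization the male and female null stood together at 5.33 and 5.31 on the log2 scale, so the sexes overlapped.

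Cd22, an inhibitory coreceptor of the B cell receptor that binds sialic acids, had another pattern. Probe set 1419768_at read 135 in the male null and 29.4 in the female null, against 126 in the female control and 116 in the male control. The low array here was the female null animal, and the male control, lowest for the other B cell genes, was not low. The second probe set, 1419769_at, stayed between 11.2 and 24.7 on the 4 arrays, within the range of absent Y-linked transcripts, and was filtered out. Cd22 was the 1 gene of the 7 whose brighter probe set did not have both females above both males by deposited intensity.

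Ltb and Pou2af1 were ordered like the receptor chains. Ltb encodes lymphotoxin beta, the membrane anchor of a cytokine made by B cells, T cells and innate lymphoid cells that is needed to build Peyer's patches. It read 23.2 in the male null and 165 in the female null, against 128 in the female control and 4.23 in the male control. Both males lay within the range of absent Y-linked transcripts and both females well above it. The male null was above 17.8, the highest value of Xist in the males. Pou2af1, the B lineage coactivator that works with Oct proteins at octamer sites, read 92.7 and 169 in the male and female null, against 205 in the female control and 56.7 in the male control. Across the 9 B cell probe sets the male control had the lowest deposited intensity on 8 and the female null on 1. After normalization the male control was lowest on 7 of the 9, and on 6 of the 7 tested. Among all probe sets tested, on the same scale, the lowest array was the male null for 36.1%, the female null for 25.2%, the female control for 19.7% and the male control for 19.1%.

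The plasma cell genes were among the brightest on the arrays and ran in the other order. Jchain, which encodes the chain that joins IgA into dimers, read 2944 in the male null and 1480.4 in the female null, against 1395 in the female control and 3243 in the male control. Igha, the constant region of the IgA heavy chain, read 6679 and 4523 in the male and female null, against 4471 in the female control and 7404 in the male control on its brightest probe set, 1425763_x_at. Both males were above both females. Probe set 1421653_a_at read 5944 and 3726 in the same null animals, against 4119 in the female control and 6524 in the male control. Probe set 1429381_x_at read 6002 and 3501 in the male and female null, against 3355 and 6466 in the female and male control. The 3 Igha probe sets measure 1 gene and the suffix of 2 of them marks probes that may match related sequences, so they are not separate evidence. They ranked between 9 and 149 of all probe sets by intensity on single arrays, and Jchain between 159 and 474.

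Promoters of 6 of the 9 genes were available from RefSeq (GRCm38.p6), and 4 are shown because their genes ran in opposite orders over the arrays: 3 of genes bright in both females and Jchain, bright in both males. Each is the 250 bases before the annotated start of transcription, 5′ to 3′ on the strand of the gene, with matches to the searched motifs in capitals. Cd79a lies at chr7:24897247-24897496 on the plus strand, Ltb at chr17:35194257-35194506 on the plus strand, Pou2af1 at chr9:51213440-51213689 on the plus strand and Jchain at chr5:88527898-88528147 on the minus strand.
Cd79a: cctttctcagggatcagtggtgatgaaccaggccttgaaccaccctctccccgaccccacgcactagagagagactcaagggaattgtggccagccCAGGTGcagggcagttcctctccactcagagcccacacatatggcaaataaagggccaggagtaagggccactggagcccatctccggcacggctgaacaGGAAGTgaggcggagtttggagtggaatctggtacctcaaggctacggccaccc
Ltb: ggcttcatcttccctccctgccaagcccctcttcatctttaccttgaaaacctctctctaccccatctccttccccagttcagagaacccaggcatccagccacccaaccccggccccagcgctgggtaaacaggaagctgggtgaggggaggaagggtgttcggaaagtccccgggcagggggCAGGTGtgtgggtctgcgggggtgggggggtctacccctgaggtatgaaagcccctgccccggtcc
Pou2af1: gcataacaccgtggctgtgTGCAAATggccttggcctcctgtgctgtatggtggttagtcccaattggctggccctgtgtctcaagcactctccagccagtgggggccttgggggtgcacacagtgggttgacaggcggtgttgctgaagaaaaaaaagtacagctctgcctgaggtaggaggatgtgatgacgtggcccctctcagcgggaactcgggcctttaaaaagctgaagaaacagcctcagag
Jchain: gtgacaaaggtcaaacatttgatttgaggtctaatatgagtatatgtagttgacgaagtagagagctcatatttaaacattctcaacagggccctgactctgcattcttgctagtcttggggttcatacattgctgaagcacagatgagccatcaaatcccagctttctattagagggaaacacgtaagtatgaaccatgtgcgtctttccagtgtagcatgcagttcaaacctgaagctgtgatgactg

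The motifs were the octamer core TGCAAAT, the Ets core GGAAGT, the E-box CAGGTG bound by E2A proteins and the paired EBF sites CCCNNGGG, each on both strands. The E-box was found in 4 of the 6 promoters, those of Cd79a, Cr2, Cd22 and Ltb, and in 17.2% of all 32851 promoters of the same length. The Ets core was found in 2, Cd79a and Cr2, against 19.7% of all promoters, and the EBF sites in 1, Cd22, against 11.8%. The octamer core occurred in 1, Pou2af1 itself, against 3.56% of all promoters, and Jchain held none of the 4 motifs in this window. No match overlapped another in the 4 promoters shown. These matches describe the letters and are no measurement of binding.

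Null against control addresses whether these genes differ in level between the animals labelled null and those labelled control. Over all 15839 probe sets tested, limma with Benjamini-Hochberg adjustment called 2 (0.0126%), and none of the 11 member probe sets that passed the filter was among them. All 11 had an adjusted p of 1 in limma, and 0 had an unadjusted p under 0.05, against 3.03% of all probe sets. The groups overlapped on all 13 probe sets, while 13.5% of all probe sets tested had both null animals above both controls and 16.3% had both below. Of the 7 B cell probe sets tested 6 had a difference above 0 and 1 below, and of the 4 plasma cell probe sets 1 was above and 3 were below, where 47.8% of all probe sets tested were above 0. No tested member reached a 2-fold difference in either direction, against 0.354% of all probe sets in each.

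The intervals were wide for the B cell genes and narrower for the plasma cell genes. Null minus control was 0.31 on the log2 scale for Cd79a (SE 0.57, 95% interval −1.04 to 1.67) and 0.70 for Cd79b (SE 0.68, −0.93 to 2.33). It was 0.81 for the brighter Ms4a1 probe set (SE 0.70, −0.85 to 2.47), 0.71 for Ltb (SE 0.98, −1.63 to 3.04) and 0.22 for Pou2af1 (SE 0.50, −0.99 to 1.42). Cd22 stood at −0.70 (SE 0.58, −2.08 to 0.68). Jchain stood at −0.03 (SE 0.43, −1.06 to 1.00), and the 3 Igha probe sets between −0.09 and 0.02, the brightest with an interval from −0.65 to 0.55. A level 2-fold higher in the null animals is therefore inside the interval for Cd79a, Cd79b, both Ms4a1 probe sets, Ltb, Pou2af1 and Jchain. One 2-fold lower is inside it for Cd79a, the dimmer Ms4a1 probe set (−1.58 to 2.15), Ltb, Cd22 and Jchain. Both lie outside the intervals of the 3 Igha probe sets. With sex as a block, on 1 residual degree of freedom, limma called 29 probe sets (0.183%) and none of the 11, and 3 of the 11 had an unadjusted p under 0.05, with the lowest adjusted p at 0.812. These were Cd79b (0.01 to 1.39), the brighter Ms4a1 probe set (0.13 to 1.498) and Ltb (0.04 to 1.38). With that block 2-fold higher lay outside the intervals of Cd79a (−0.33 to 0.96) and Pou2af1 (−0.39 to 0.83). Both 2-fold higher and 2-fold lower then lay outside that of Jchain (−0.29 to 0.23).

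**Figure D2:**
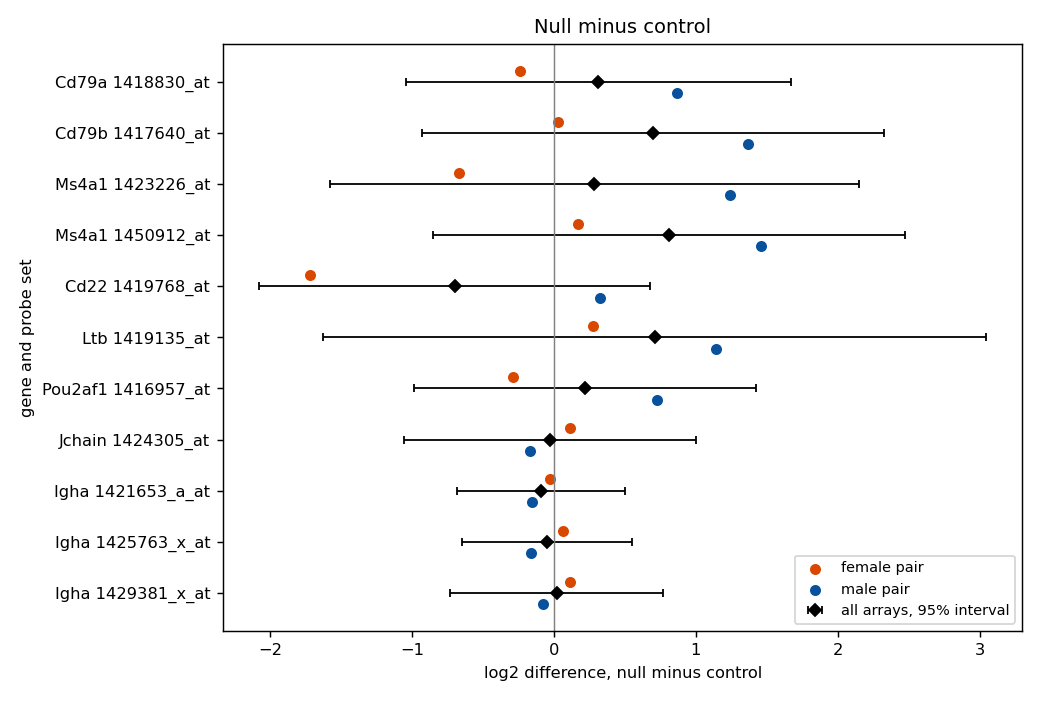
Log2 difference of null minus control, with limma's 95% interval over all 4 arrays (diamonds and bars), for the 11 member probe sets tested, beside the difference within the female pair (orange) and within the male pair (blue). All intervals hold 0, and the male pair lies above the female pair for each B cell probe set.

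The 2 pairs of the same sex did not give the same difference. In the male pair, the male null minus the male control, each of the 9 B cell probe sets was above 0. The differences ran from 0.32 for the brighter Cd22 probe set to 1.46 for the brighter Ms4a1 probe set, with Cd79a at 0.87 and Cd79b at 1.37. In the male control 6 of these 9 probe sets read no higher than 34.4, the highest value of an absent Y-linked transcript. Among them were Cd79b at 28.5 and the brighter Ms4a1 probe set at 23.6, so the size of these differences is uncertain. Both of these values were above 17.8, the highest value of Xist in the males. In the female pair, the female null minus the female control, Cd79a was at −0.24, Cd79b at 0.03, the brighter Ms4a1 probe set at 0.17, Ltb at 0.28, Pou2af1 at −0.29 and Cd22 at −1.72. The sign of the B cell differences over all arrays changed with single arrays. Without the male control they turned to −0.59 for Cd79a, −0.41 for Cd79b, −0.30 for the brighter Ms4a1 probe set, −0.71 for Ltb and −0.57 for Pou2af1 at an adjusted p of 1 in limma for each, while Cd22 stayed below 0 at −0.74. Without the female null, Cd79a turned to −0.03, the dimmer Ms4a1 probe set to −0.07, Ltb to −0.29 and Pou2af1 to −0.07, whereas Cd79b stayed at 0.27 and the brighter Ms4a1 probe set at 0.34. The median over the brightest probe sets of the 6 B cell genes tested was 0.51 on all arrays and −0.57 without the male control, beside −0.01 over all probe sets tested. For Jchain and Igha together the median was −0.04, at −0.16 for the males and 0.09 for the females. Jchain turned to 0.58 without the male control and to 0.44 without the female null.

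In null against control, Cd22 was the 1 member that passed the threshold when an array was left out. Without the male null its difference was −1.67 with an adjusted p of 0.0432 in limma, where the remaining null animal is assumed to vary like the other group. Without the female null it was 0.28 with an adjusted p of 0.529. The value on all 4 arrays thus rested on the female null, where the probe set read 29.4, within the range of absent Y-linked transcripts.

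Sex was the label that ordered the arrays for most members, so females were set against males in the same model, a comparison chosen after the values by array had been seen. Adjacent animal numbers run within each sex, and the labels do not say what these stand for, so sex cannot be told apart from whatever they mark. Over all probe sets limma called 6 (0.0379%), none of them a member. Of the 11 member probe sets 10 had an unadjusted p under 0.05 in that fit, against 7.63% of all probe sets. With genotype as a block, on 1 residual degree of freedom, limma called 84 probe sets (0.53%). Among them were 5 of the 11 members, namely Jchain, the 3 probe sets of the 1 gene Igha, and Ltb. That block means null or control only. It does not part the controls, whose HNF4 alleles and Cre differ along with sex.

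Ltb and the dimmer Ms4a1 probe set were within the range of absent Y-linked transcripts in both males, so the size of their female minus male difference follows the pseudocount. For Ltb it was 2.41 on the log2 scale with 16 added, 3.60 with 1 and 1.38 with 64, and for Ms4a1 1.66, 2.77 and 0.85 in the same order. The adjusted p of Ltb in limma was 0.143, and 0.00589 with genotype as a block. Female minus male was 1.25 for Cd79a (SE 0.30, 95% interval 0.53 to 1.96), 1.53 for Cd79b (SE 0.41), 1.58 for the brighter Ms4a1 probe set and 1.07 for Pou2af1 (SE 0.28), with adjusted p between 0.448 and 0.494 in limma. The brighter Cd22 probe set stood at −0.93 (SE 0.50). Jchain stood at −1.07 (SE 0.11, −1.34 to −0.80). Its adjusted p in limma was 0.0526, and 0.00279 with genotype as a block. The 3 Igha probe sets stood between −0.77 and −0.60, with adjusted p from 0.0603 to 0.132 and from 0.00542 to 0.0181 with that block. Both females were above both males on 6 of the 7 B cell probe sets tested and below them on all 4 plasma cell probe sets. Over all probe sets tested females were above males without overlap on 22.3% and below on 17.9%. These 6 B cell probe sets were at least 2-fold higher in females, against 0.518% of all probe sets, and Jchain was at least 2-fold lower, against 0.909%. Without the male control Cd79a fell to 0.81, Cd79b to 0.85, the brighter Ms4a1 probe set to 0.86 and Pou2af1 to 0.71, under 2-fold, and Ltb stood at 1.85. With 64 as the pseudocount Cd79a, at 0.87, and Pou2af1, at 0.78, were also under 2-fold.

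The size differed between null animals and controls for the B cell genes and little for the plasma cell genes. Among the null animals female minus male was 0.69 for Cd79a, 0.86 for Cd79b, 0.94 for the brighter Ms4a1 probe set and 1.98 for Ltb. Among the controls it was 1.80, 2.20, 2.23 and 2.84 for these genes in the same order. Jchain stood at −0.93 among the null animals and −1.21 among the controls. Whether null animals and controls differ in this was not tested, since each sex in each group was 1 animal. Among the controls sex also goes with the HNF4 alleles and with Cre, and these cannot be told apart. The brighter Cd22 probe set stood at −1.95 among the null animals and 0.09 among the controls.

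**Figure D3:**
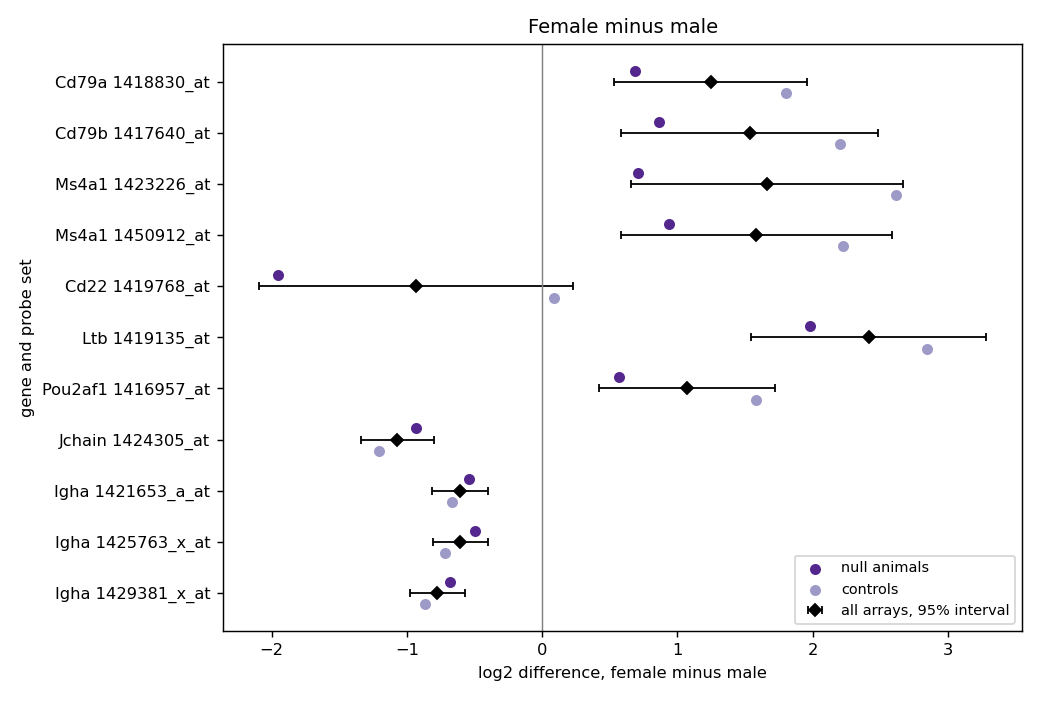
Log2 difference of female minus male, with limma's 95% interval over all 4 arrays (diamonds and bars), for the 11 member probe sets tested, beside the difference within the null animals (dark purple) and within the controls (light purple). The B cell probe sets other than Cd22 lie to the right of 0 and the plasma cell probe sets to the left in null animals and in controls.

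Other genes of the B lineage were compared on the brightest probe set of each gene. Of 12 further B cell genes tested 7 had a null minus control difference above 0 and 5 below, none past the threshold, with a median of 0.03. The transcription factor gene Spib, used by B cells and by M cells of the follicle epithelium, read 166 in the male null and 210.4 in the female null, against 208 in the female control and 40.6 in the male control. The tetraspanin gene Cd37 read 34.3 and 69.2 in the male and female null, against 82.1 in the female control and 12.04 in the male control. Cd72, an inhibitory B cell lectin, read 66.3 and 97.2 in the male and female null, against 96.4 and 65.9 in the female and male control. Fcrl1, a B cell surface protein of the Fc receptor-like family, read 42.9 and 42.1 in the male and female null, against 17.1 and 17.6 in the female and male control, a difference of 0.85 (SE 0.25) at an adjusted p of 1 in limma. Both control values lay within the range of absent Y-linked transcripts, so the size of this difference is uncertain. The other Fcrl1 probe set, also dim and filtered out, read 13.5 and 42.9 in the male and female null. In the female and male control it read 53.6 and 4.17, which is the order of Cd79a. Of the 12 genes 8 had both females above both males, against 22.3% of all probe sets tested, and 8 were lowest in the male control, against 19.1%.

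Genes of B cell receptor signalling, which include inhibitors and surface proteins beside kinases and adaptors, were mostly in the same order of arrays. Of 10 tested 8 were above 0 and 2 below in null minus control, none past the threshold, with a median of 0.08, and 7 had both females above both males, against 22.3% of all probe sets tested. The kinase gene Syk differed by 0.33 (SE 0.26) and the Fc receptor gene Fcgr2b by 0.24 (SE 0.25), and limma's adjusted p was 1 for each. Ptpn6 differed by 0.11 (SE 0.25) and Pik3cd by −0.18 (SE 0.27). The sexes overlapped for Ptpn6, Fcgr2b and Cd81. Cd81, a partner of Cr2 that many other cells express, read 1035 and 1013 in the male and female null, against 1078 and 1229 in the female and male control. Among germinal centre genes Bcl6 alone was bright enough, with a difference of 0.04 (SE 0.23).

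Genes of the follicle stroma were mostly lowest in the male control. Cxcl13, the chemokine that draws B cells into follicles, read 323 in the male null and 549 in the female null, against 490.0 in the female control and 49.99 in the male control. Mfge8, made by follicular dendritic cells among others, read 278.03 and 376 in the male and female null, against 599.7 in the female control and 156 in the male control. Ccr6, a chemokine receptor of B cells, read 46.1 and 162 in the male and female null, against 204 and 22.4 in the female and male control. All 5 genes of the list that were tested had a null minus control difference above 0, with a median of 0.25 and none past the threshold, and 4 of them were lowest in the male control, against 19.1% of all probe sets tested. The median was −0.31 without the male control. Of 6 genes of the follicle epithelium tested 4 were lowest in the male control, and 5 were above 0 and 1 below in null minus control, none past the threshold. Clu read 690.2 and 709 in the male and female null, against 799.8 in the female control and 186 in the male control. Ccl9 read 92.8 and 161 in the male and female null, against 142 and 93.4 in the female and male control. Scg5 was instead highest in the male control, at 41.9, against 29.4 in the female control, 16.4 in the male null and 33.3 in the female null. Ccl20, the ligand of Ccr6, read 46.5 and 50.5 in the male and female null, against 50.8 and 18.8 in the female and male control. For Cxcl13, Spib and Clu the male null was nearer to the females than to the male control.

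Other plasma cell genes were split over the order of Jchain and Igha, and of 10 tested 2 had both females below both males, against 17.9% of all probe sets tested, and 5 had both above, against 22.3%. In null minus control 6 were above 0 and 4 below, none past the threshold, with a median of 0.04. Ighm, the IgM heavy chain that naive B cells also carry, read 478 in the male null and 543 in the female null, against 833 in the female control and 171 in the male control on its brightest probe set, which is the order of Cd79a rather than that of Igha. Xbp1, a transcription factor of secretory cells, read 965 and 1188 in the male and female null, against 1082 and 866 in the female and male control. Sdc1, the syndecan of plasma cells and epithelium, differed by −0.51 (SE 0.26) with an adjusted p of 1 in limma on its brightest probe set, while its 3 other probe sets stood at 0.16 to 0.20. Pigr, the epithelial receptor that carries IgA dimers into the lumen, read 2662 and 2337 in the male and female null, against 2582 and 2312 in the female and male control, a difference of 0.07 (SE 0.11).

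**Figure D4:**
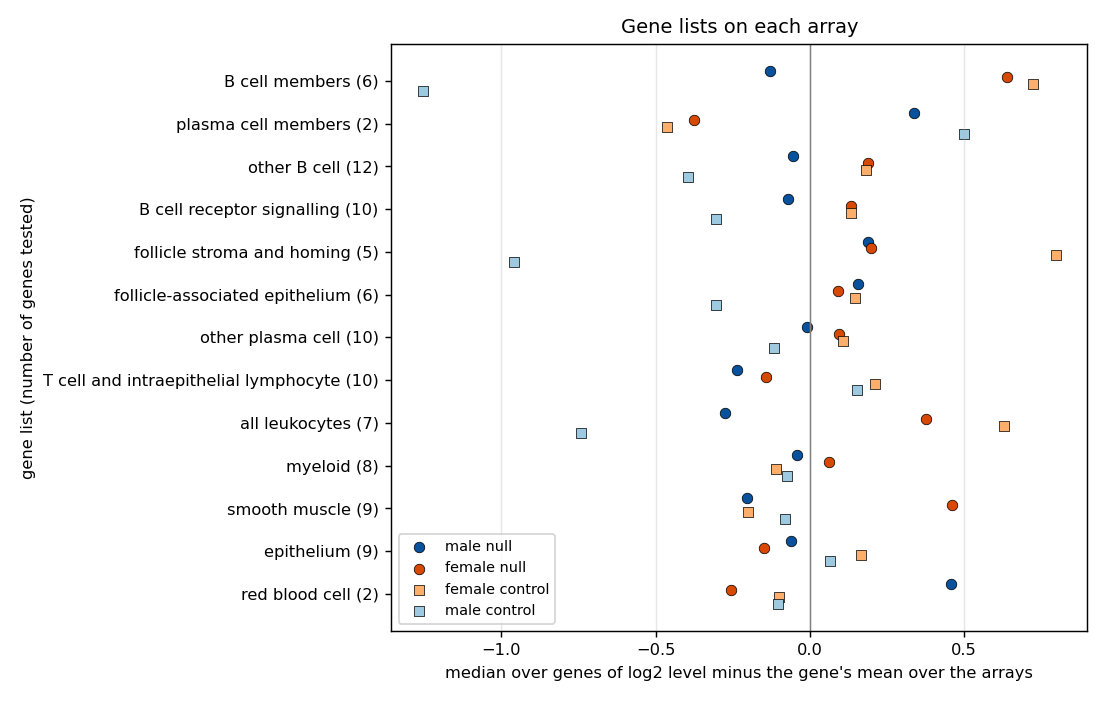
Median over the genes of each list of the log2 level minus the gene's own mean over the 4 arrays, shown for each array. The B cell genes of the study set range from −1.25 in the male control to 0.73 in the female control, while the epithelium list stays between −0.15 and 0.16.

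The per-array levels of these lists were set beside those of other cell types. Relative to each gene's mean, the B cell members had a median of −0.13 in the male null and 0.64 in the female null, against 0.73 in the female control and −1.25 in the male control. Genes of all leukocytes stood at −0.28 and 0.38 in the male and female null, against 0.63 in the female control and −0.74 in the male control. Of the 7 tested 6 were lowest in the male control. The exception was Ptprc, at 184 and 416 in the male and female null, against 440 and 205 in the female and male control. T cell and intraepithelial lymphocyte genes did not separate the male control, with −0.23 and −0.14 in the male and female null, against 0.21 and 0.15 in the female and male control. Of 10 tested 8 were below 0 and 2 above in null minus control, none past the threshold, where 47.8% of all probe sets tested were above 0. Cd7 stood at −0.84 (SE 0.22) and Gzma at −0.61 (SE 0.27). Myeloid genes stood between −0.11 and 0.06 and epithelial genes between −0.15 and 0.16. Smooth muscle genes were highest in the female null, at 0.46, and stood between −0.20 and −0.08 on the other arrays. Summed deposited intensities of the 6 B cell genes tested were 499 and 924 in the male and female null, against 1009 in the female control and 270.1 in the male control. Those of the 9 epithelial genes tested were 28339 and 25082 in the male and female null, against 31774 and 30295 in the female and male control. The part of these other cell types in the B cell values was not tested.

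Of all named genes outside the study set, 8 were picked by the likeness of their profile over the 4 arrays to the mean profile of Cd79a, Cd79b, Ms4a1 and Cd22, by root mean square distance of centred log2 levels. The nearest were Mfge8 at 0.13 and Tnfrsf13c, the receptor for the B cell survival factor BAFF, at 0.15, followed by Tmem191c, Serpina1b, Cd37, Phgdh, Coro1a and Vcam1 at 0.16 to 0.18. The mean profile itself had a root mean square of 0.58. Tnfrsf13c read 37.3 in the male null and 59.4 in the female null, against 99.3 in the female control and 20.6 in the male control. Coro1a, an actin regulator of leukocytes, read 138 and 254 in the male and female null, against 313 and 87.01 in the female and male control. Vcam1, an adhesion molecule of stromal and endothelial cells, read 22.3 and 52.4 in the male and female null, against 51.5 and 10.4 in the female and male control. Phgdh, an enzyme of serine synthesis, read 51.6 and 75.5 in the male and female null, against 72.1 and 15.8 in the female and male control. Serpina1b, an antitrypsin gene, read 27.4 and 52.9 in the male and female null, against 49.2 and 10.1 in the female and male control. Tmem191c read 216 and 302 in the male and female null, against 299 and 111 in the female and male control. Cd22 ran against the other 3 genes in the female null, which brought the mean profile there to 0.21, so the ranking rests on a mix that no single one of the 4 genes shows. With 4 arrays many genes can take such a profile, and likeness is given as a description.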

How the data were processed

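Total RNA of small intestine from 4 mice was measured on 4 single-colour Affymetrix arrays. The deposited values are linear intensities, 1 for each probe set on each array. No source used here gives the summarisation software, background correction or scaling, so what the authors did to the intensities before they deposited them is unknown, and fold differences of dim probe sets may depend on it. Genes were assigned from the platform annotation. Of 22626 probe sets that are not controls, 20380 had 1 gene, 691 several and 1555 none, and all 13 member symbols matched their Entrez identifiers in the GRCm38.p6 gene table.

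After quantile normalization of the intensities, values below 0 were set to 0, 16 was added and log2 was taken, and the dimmest 30% of probe sets by mean were left out. Two-sided tests used limma 3.58.1 in R 4.3.3 (lmFit, eBayes with an intensity trend, no covariates), Benjamini-Hochberg adjusted p-values (15839 probe sets) and a threshold of 0.05, on 2 residual degrees of freedom, and were tested on simulated data. Precision is limited by the number of arrays. Alternatives were the scaling, pseudocount, filter, prior, sex as a block and each array left out. Fits with a block or with an array left out had 1 residual degree of freedom.

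Members and lists were chosen with earlier results of these data known. Named genes were all member probe sets, genes out of the 3 with the largest difference and the 2 brightest of each other list, and the 8 genes most alike in profile. Not every gene this rule picked is printed. Those left out include Madcam1, Thy1, Gzmb and genes of the myeloid, smooth muscle and epithelium lists. Female against male was added after the values were seen, with genotype (null or control) as a block as an alternative.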

Additional observations from a re-analysis of the deposited data

Results flagged for a closer look

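For 9 of the 13 member probe sets (69.2%) the difference of null minus control had opposite signs in the male and the female pair, against 51.6% of all probe sets tested. The 2 shares are over unlike sets, since the 9 include Cr2 and the second Cd22 probe set, which did not pass the filter. Each pair is 1 null animal and 1 control, so the difference between the pairs was not tested. Male pair minus female pair was 1.11 on the log2 scale for Cd79a, 1.91 for Ms4a1 on probe set 1423226_at, 1.39 for Cr2, 2.04 for Cd22 on 1419768_at and 1.16 on 1419769_at, and 1.01 for Pou2af1. It was −0.28 for Jchain and −0.22 and −0.19 for the Igha probe sets 1425763_x_at and 1429381_x_at. On the B cell probe sets the male pair was the higher of the 2 pairs, and on the plasma cell probe sets the female pair was. Dixon's test needs at least 4 samples in a group and was not run.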

How the results depend on the processing

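The groups share no replicate number, and sex as a block, which pairs the animals of each sex, gave 29 calls for null against control, none of them a member. Calls for null against control were 1 without an intensity trend, and 0 to 35 with single arrays left out (35 without the male null, 10 without the female null and 0 without the male control, where 205 had an unadjusted p under 0.05). Calls for female against male were 16 without normalization, 2 without a trend and 84 with genotype as a block, and 2 to 73 with single arrays left out (20 when the female null was left out, 73 for the female control and 2 for the male control). Of the member differences, 2 near 0 turned sign under a scaling: Jchain was 0.027 in null minus control with arrays scaled to the same median and Igha 1429381_x_at was −0.023 without normalization, and the cause was not tested. With single arrays left out, null minus control ran from −0.59 to 1.21 for Cd79a, −0.41 to 1.80 for Cd79b, −1.02 to 0.63 and −0.30 to 1.92 for the Ms4a1 probe sets, −1.67 to 0.28 for Cd22, −0.71 to 2.13 for Ltb and −0.57 to 1.01 for Pou2af1. It ran from −0.63 to 0.58 for Jchain and from −0.45 to 0.23, −0.41 to 0.29 and −0.43 to 0.46 for the Igha probe sets. Female minus male kept its sign on all 11 member probe sets under every alternative run, and for Jchain it passed the threshold with genotype as a block (adjusted p = 0.00279 in limma), without normalization (0.0202), without a filter (0.0442) and with pseudocounts of 1 (0.0461) and 64 (0.0496). It did not pass without a trend (0.447), with arrays scaled to the same median (0.0726) or with the dimmest 50% left out (0.0602). Ltb passed without normalization (0.0498) and Igha 1429381_x_at without normalization (0.0202) and with a pseudocount of 64 (0.0496), and these 2 and the other Igha probe sets passed with the block. With the female null left out Jchain (0.0128) and 2 Igha probe sets (0.0128 and 0.0402) passed, and with the female control left out Jchain (0.00955) and all 3 Igha probe sets (0.0114 to 0.0454).

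List medians of null minus control with single arrays left out ran from −0.57 to 1.503 for the B cell members, −0.25 to 0.41 for other B cell genes, −0.10 to 0.34 for B cell receptor signalling, −0.41 to −0.30 for T cells, 0.0712 to 0.17 for myeloid cells, −0.18 to 0.58 for smooth muscle, −0.27 to −0.12 for epithelium and −0.15 to 0.56 for red blood cells. The T cell median was −0.47 with a pseudocount of 1, −0.22 with 64 and −0.30 without the filter. The germinal centre median was 0.30 without the filter and 0.19 over all probe sets of a gene, and the myeloid median 0.0725 without the filter. Ms4a1 1423226_at was left out by the filter at 50% and without the female control, so those settings give it no value. Dim values limit Cr2, the second Cd22 probe set, and Ltb and Ms4a1 1423226_at in the males. They also limit Cd79b and Ms4a1 1450912_at in the male control and Cd22 1419768_at in the female null.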

Other observations

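Immunoglobulin probe sets outside the study set, a group formed after the values were seen, went both ways. In female minus male 9 of the 28 were above 0 and 19 below. Of 16 with a single Igk or Igkv symbol, 14 had a female minus male difference below 0 and 2 above, with a median of −0.64 on the log2 scale. Igkv8-30, at a level like that of Jchain, read 2987 in the male null and 2066 in the female null, against 1806 in the female control and 3316 in the male control. Igkv15-103, a single light chain variable segment, read 287 and 70.05 in the male and female null, against 50.1 in the female control and 264 in the male control, and its female minus male difference of −2.06 had an adjusted p of 0.0484 in limma. The heavy chain probe set of Ighg3 stood at −0.29, and that of Ighv14-2, below 0 in deposited intensity in the male control, at 1.85. Of 2 Iglv1 probe sets 1 was above 0 and 1 below. Of 8 Ighm probe sets 5 were above 0 and 3 below in female minus male. The brightest, 1427351_s_at, stood at 1.16, while 1452535_at, at 268 and 98.9 in the male and female null, against 64.2 in the female control and 194 in the male control, stood at −1.45. Probe sets annotated to 1 gene can share sequence with other variable segments. Igkv9-120 shows how far they can part: 1452536_s_at read 12.3 and 55.3 in the male and female null, against 142 and 325 in the female and male control, whereas 1460423_x_at read 414 and 169 in the male and female null, against 135 and 524 in the female and male control. In null minus control none of the 28 immunoglobulin probe sets passed (adjusted p of 1 in limma for each), and 17 were above 0 and 11 below.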
